A study of Homo sapiens with 6 samples.

Results

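The noncoding RNAs described here are 10 small RNA genes whose products form the core of ribonucleoprotein particles (RNPs) outside the spliceosome: the telomerase RNA TERC, the RNase MRP RNA RMRP, the RNase P RNA RPPH1, the signal recognition particle (SRP) RNAs RN7SL1 and RN7SL2, the vault RNAs VTRNA1-1, VTRNA1-2 and VTRNA1-3, and the Y RNAs RNY1 and RNY5. They were followed through a list of USP39 binding sites on RNA. A site was counted for a gene when its central base lay within the annotated span of the gene, and by that rule 46 of the 34781 sites in the list (0.132%) lay in the 10 genes. USP39 resembles ubiquitin-specific proteases and belongs to the tri-snRNP that brings the U4, U6 and U5 RNAs into the spliceosome.

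The sites come from iCLIP2 of HEK293T cells of wild-type genotype, a cell line of human embryonic kidney origin that carries the SV40 large T antigen. In that assay, UV light (254 nm here) joins proteins to the RNA they touch, the protein is immunoprecipitated (here with an anti-USP39 antibody), and reverse transcription tends to stop at the joined base, so that sites can be placed to the base. The study made 6 libraries, 3 from a high and 3 from a low region of the membrane, both above the size of USP39. No UV treatment is named as the negative control in the series' design and was not analysed here. The deposited site list is merged, and it gives a score of 0 to every site. Each site is 5 nt wide. No value belongs to a single library, so read depth is unknown, replicate error cannot be given, membrane regions cannot be compared, and every count below is a description with no test. RNA abundance was not measured, so a count does not separate how often USP39 binds an RNA from how much of that RNA the cells hold.

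As background, these RNAs act through the proteins they hold together. TERC carries the template that telomerase copies onto chromosome ends, and its 3′ part folds as an H/ACA RNA bound by dyskerin. RPPH1 is the catalytic RNA of RNase P, which trims the 5′ leader of precursor tRNAs, and RMRP is its relative in RNase MRP, which cuts precursor ribosomal RNA; the human enzymes share most of their proteins. The SRP RNA, also called 7SL, directs ribosomes that make secretory proteins to the endoplasmic reticulum, with an Alu domain built from both ends of the RNA and an S domain from its middle. Vault RNAs are short RNAs associated with the vault particle, and Y RNAs bind the Ro60 and La proteins. TERC is transcribed by RNA polymerase II, the others by RNA polymerase III.

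Every 1 of the 10 RNAs had a site within its span. TERC had 9 sites, RMRP 7, RPPH1, VTRNA1-1 and VTRNA1-2 5 each, VTRNA1-3 4, RN7SL1, RN7SL2 and RNY5 3 each, and RNY1 2. Among 1835 small noncoding RNA genes (snoRNA, snRNA, tRNA, scRNA, vault, Y, telomerase, RNase P and RNase MRP classes, spans up to 600 nt) 25.4% had a site. The table behind that share also holds genes that HEK293T cells may not express. The 10 genes were chosen with earlier results of these data known, so their 10 of 10 cannot be compared with that share. Of the same families but outside the 10, RNY3, RNY4 and VTRNA2-1 had 0 sites in their spans and RN7SL3 had 1. In each of the 10 genes all sites lay on a single strand, the plus strand for 5 genes and the minus strand for the other 5.

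**Figure D1:**
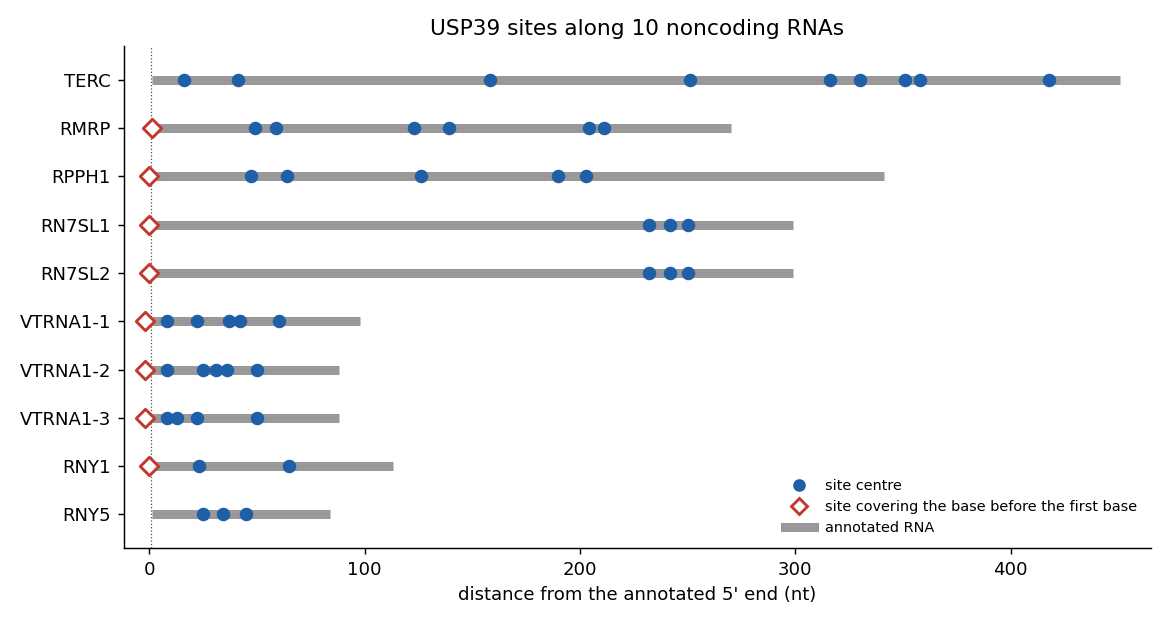
Centres of USP39 sites along the 10 RNAs. The x axis is the distance from the annotated 5′ end in nt, grey bars are the annotated RNAs, filled points are site centres and open diamonds are sites that cover the base just before the first base. Site centres stop at least 33 nt before the 3′ end in each RNA, and 8 of the 10 RNAs carry a diamond.

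Per length, the order of the RNAs changed. With close sites counted separately the vault RNAs were densest, at 56.8 sites per kb in VTRNA1-2, 51.0 in VTRNA1-1 and 45.5 in VTRNA1-3. RNY5 followed with 35.7 sites per kb, RMRP with 25.9, TERC with 19.96, RNY1 with 17.7 and RPPH1 with 14.7. The SRP RNAs were lowest, with 10.03 sites per kb each. The median over the 10 genes was 22.9 sites per kb, against 20.2 over the other small noncoding RNA genes that had a site. The density of the 10 genes was thus close to that of other small RNA genes with sites, among which the snoRNA genes had a median of 26.3, the tRNA genes 13.9 and the snRNA genes 12.2. Counted over whole classes, genes without a site included, the densities were 7.27 sites per kb in tRNA genes, 4.90 in snoRNA genes and 3.10 in snRNA genes. In these classes 39.1%, 20.6% and 17.3% of the genes had a site. The 10 genes pooled had 21.6 sites per kb. They all have a site and were chosen with earlier results known, so this value is not comparable with those of whole classes.

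**Figure D2:**
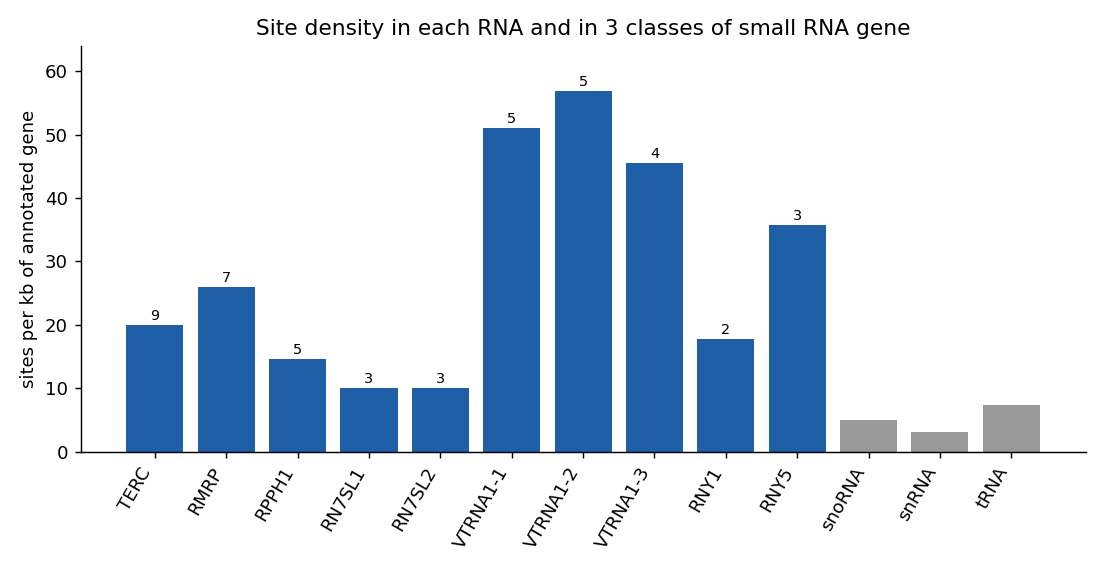
Sites per kb of annotated gene in each of the 10 RNAs (blue, number of sites above the bar) and pooled over all snoRNA, snRNA and tRNA genes of the annotation (grey). The grey bars include genes without a site and the blue bars do not, so their heights are not comparable. With close sites counted separately the 3 vault RNAs stand highest, at 45.5 to 56.8 sites per kb. There are no error bars because the list is merged.

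TERC lies on chromosome 3 at 169764610 to 169765060 and is 451 nt long. Counted from its 5′ end, its 9 sites were centred on positions 16, 41, 158, 251, 316, 330, 351, 358 and 418. Up to the midpoint of the RNA there were 3 sites, and past it 6, so that most lay in the part of human TERC that holds the H/ACA domain. Neighbouring sites were 7 to 117 nt apart, with a median of 42.5 nt. The closest pair, at 351 and 358, covered the bases 169764701 to 169764705 and 169764708 to 169764712. TERC had the widest range of positions of the 10 RNAs, with the centre of its last site 33 nt from the 3′ end, at 169764641 to 169764645. It stood alone in its surroundings: the nearest site outside it was 7188 nt away, and the nearest on its own strand 167015 nt away. Among 11987 genes of up to 600 nt, 629 had a site. None of them had more sites than TERC, and 1, the histone gene H4C4, had as many. That rank is by count with close sites counted separately, and makes no allowance for length. Per kb, TERC had 19.96 sites, below the median of 22.9 over the 10 genes.

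RMRP lies on chromosome 9 at 35657750 to 35658019, with 270 nt. Its 7 sites were centred on positions 1, 49, 59, 123, 139, 204 and 211. The site at position 1 spans 35658017 to 35658021 and thus reaches past the annotated first base. RPPH1, on chromosome 14 at 20343071 to 20343411, is 341 nt long and had 5 sites in its span, at positions 47, 64, 126, 190 and 203. A further site of the list, at 20343410 to 20343414, was centred on the base just before the first base of RPPH1 (position 0 in this numbering) and is not among the 5, although its last bases lie in the gene.

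The positions in the related RNAs of RNase MRP and RNase P can be set side by side. With the end site of RPPH1 included, 5 of the 7 RMRP positions lay within 5 nt of an RPPH1 position: 1 beside 0, 49 beside 47, 59 beside 64, 123 beside 126 and 204 beside 203. The other 2, at 139 and 211, were 13 and 8 nt from the nearest. The bases within 5 nt of an RPPH1 position made up 22.2% of the length of RMRP, the first pair is the 5′ end site that other small RNAs also had, and the allowance of 5 nt was chosen after the positions were seen. No position was identical, the RNAs differ in length, and the numbers come from no alignment of the sequences, so the pairs are not shown to be equivalent bases. In both RNAs the 3′ stretch was free of sites, over the last 136 nt of RPPH1 and the last 57 nt of RMRP.

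The SRP RNA genes RN7SL1 (chromosome 14, 49586580 to 49586878) and RN7SL2 (chromosome 14, 49862551 to 49862849) are both 299 nt long, and their sites coincided. Each had 3 sites, at positions 232, 242 and 250, and each had a further site at position 0, just outside the span. All 4 positions of RN7SL1 were thus shared with RN7SL2. The 3 inner sites formed a single group with 8 and 10 nt between neighbours, at 49586809 to 49586831 on the plus strand in RN7SL1 and at 49862598 to 49862620 on the minus strand in RN7SL2. Between positions 0 and 232 neither RNA had a site. The genes are near-identical copies, and how reads matching several copies were treated is not given in the sources used here, so the number of sites in either copy is uncertain. RN7SL3, a further 7SL gene of the same length, had the end site at position 0 and 1 site in its span, at position 38, and none at 232 to 250. Of 684 RN7SL pseudogenes in the annotation, 1 (RN7SL674P) had a site, a single one.

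All of the sites of the vault RNAs lay in the first 60 nt. VTRNA1-1 (chromosome 5, 140711276 to 140711373, 98 nt) had sites at positions 8, 22, 37, 42 and 60. VTRNA1-2 (140718926 to 140719013, 88 nt) had them at 8, 25, 31, 36 and 50, and VTRNA1-3 (140726159 to 140726246, 88 nt) at 8, 13, 22 and 50. In addition, each had a site centred on position -2, whose last base is the base just before the gene, at 140711271 to 140711275, 140718921 to 140718925 and 140726154 to 140726158. The sites at -2 and 8 were common to the 3 RNAs when counted from the 5′ end. Counted from the other end, the last site was also common: in each RNA its centre had 38 bases after it, although VTRNA1-1 is longer than the others. How reads matching several of these genes were treated is not given either. Whether the shared positions are separate observations was therefore not tested. With the end site included, VTRNA1-3 shared 3 of its 5 positions with 3 of the 6 of VTRNA1-1, and 3 of its 5 with 3 of the 6 of VTRNA1-2. Each RNA also had an abutting pair of sites 5 nt apart, but at different positions: 37 and 42 in VTRNA1-1, 31 and 36 in VTRNA1-2 and 8 and 13 in VTRNA1-3. From 22.7% to 28.4% of the bases of these RNAs lay in a site. The other genes of the family in the annotation, VTRNA2-1 and the pseudogene VTRNA3-1P, had 0 sites.

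RNY1 and RNY5, both on chromosome 7, had no identical position, and their closest were 23 and 25. RNY1 (148987136 to 148987248, 113 nt, minus strand of sites) had sites at positions 23 and 65 and an end site at position 0. RNY5 (148941488 to 148941571, 84 nt, plus strand of sites) had a run of sites at 25, 34 and 45 and none at the 5′ end. Their neighbours differed from them: RNY4 had 0 sites in its span but an end site at position 0, at 148963312 to 148963316, and RNY3 had 0 in either place. Of 75 Y RNA pseudogenes, 0 had a site.

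**Figure D3:**
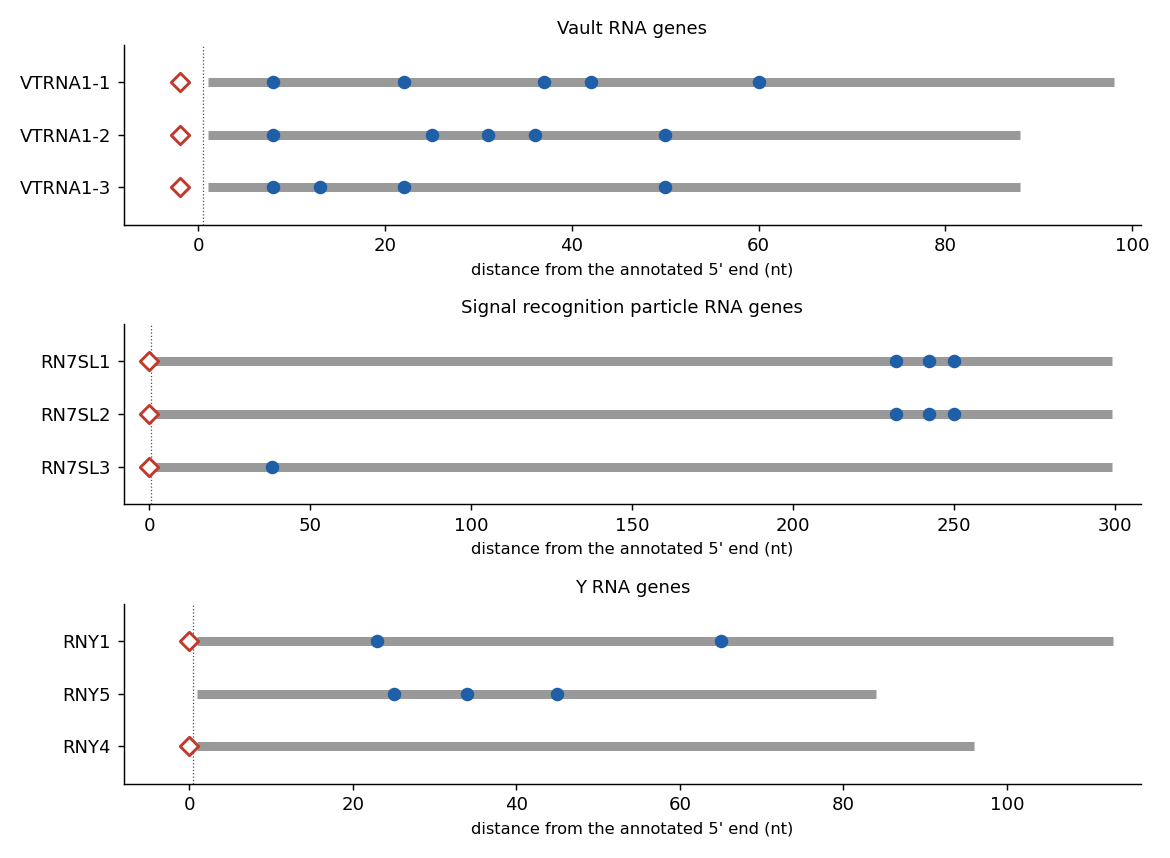
Site centres in the members of 3 RNA families by distance from the annotated 5′ end in nt, with symbols as in the map of all 10 RNAs. The vault RNAs share the sites at -2 and 8, RN7SL1 and RN7SL2 share all 4 positions, and RNY4 has only the site at position 0.

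A site at the very 5′ end was shared by most of these RNAs. In 8 of the 10 RNAs a site covered the base just before the annotated first base: at position 0 in RPPH1, RN7SL1, RN7SL2 and RNY1, at position 1 in RMRP and at -2 in the vault RNAs. This definition was chosen after the positions were seen. The exceptions were TERC, whose first site was at position 16, and RNY5, at 25. Of these 8 sites, 7 were centred outside the annotated span and were not counted among the 46. Over all 1835 small noncoding RNA genes 12.2% had such a site, and among the 482 with any site in the span or at the 5′ end the share was 46.5%. The feature is not particular to the 10 genes: it was present in 185 of 257 such snoRNA genes (71.98%) and 17 of 28 such snRNA genes (60.7%), but in 12 of 185 such tRNA genes (6.49%).

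Around the 5′ end the sites were sharply placed. In the 10 RNAs, 8 sites were centred on the 5 bases from -2 to 2, 0 on the 18 bases before them (-20 to -3), and 3, the sites at position 8 of the vault RNAs, on the 10 bases after them (3 to 12). The snoRNA genes had 185, 15 and 62 sites in these windows and the snRNA genes 17, 1 and 6. The tRNA genes differed, with 12 sites from -2 to 2 and 46 from -9 to -3. By the convention of iCLIP, the crosslinked base is taken as the base before the start of the sequenced cDNA, so that a cDNA copied to the first base of an RNA is placed at position 0. The list holds no cDNA starts, and whether the end sites are such complete copies was not tested.

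**Figure D4:**
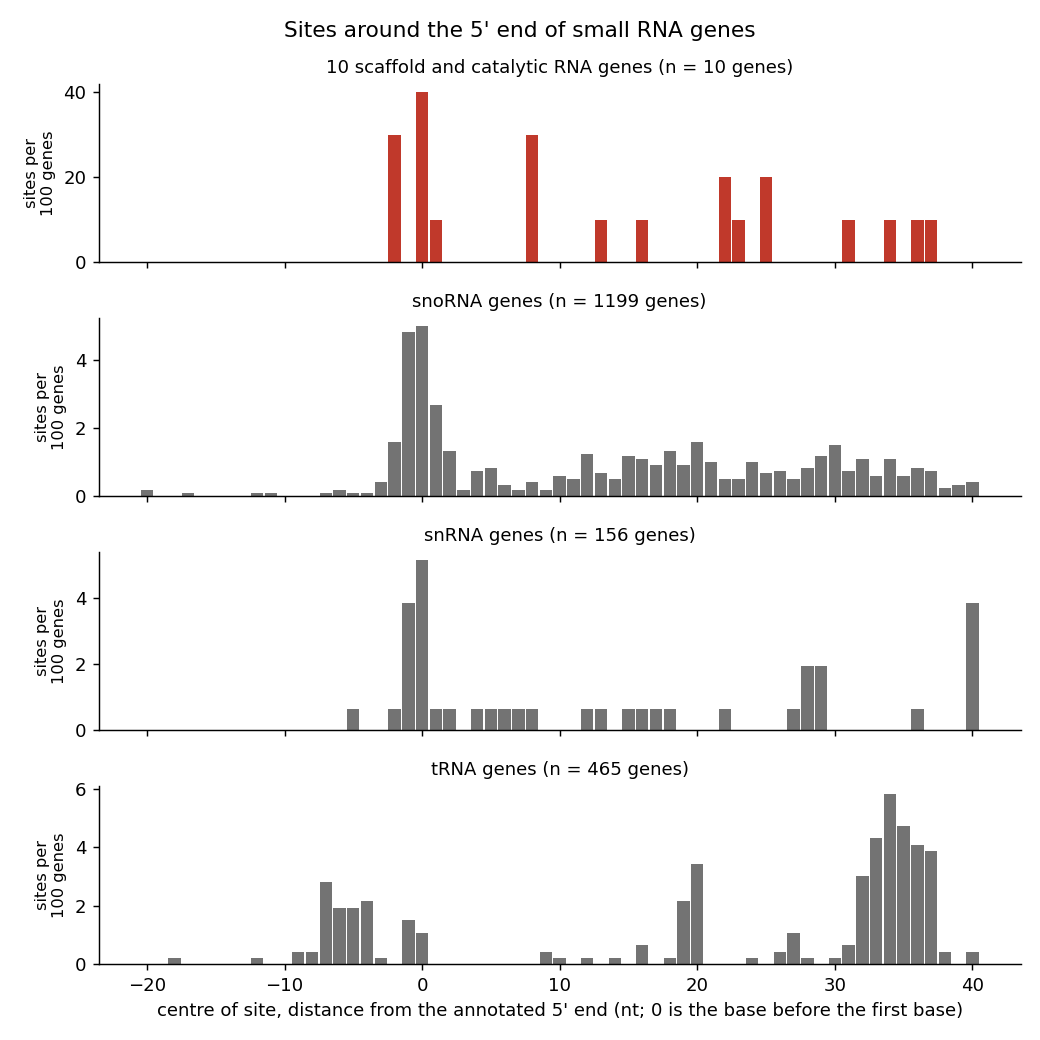
Number of sites per 100 genes by the distance of the site centre from the annotated 5′ end in nt, for the 10 scaffold and catalytic RNA genes and for snoRNA, snRNA and tRNA genes; the y axes differ in scale. In the 10 RNAs the bars at -2, 0 and 1 are the 8 end sites, and the tRNA genes have their upstream sites mainly from -9 to -3.

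The 3′ ends of the RNAs were free of sites. None of the 46 sites lay in the last 30 nt of its RNA, and the distance from the centre of the last site to the 3′ end ran from 33 nt in TERC to 138 nt in RPPH1. Of 212 small noncoding RNA genes of 84 nt or more with a site, 88.2% likewise had none in the last 30 nt. The 10 RNAs were thus not set apart by it from these genes as a whole. By class, the share was 93.6% in snoRNA genes and 84.6% in snRNA genes, but 42.1% in tRNA genes (8 of 19). Of the sites of the other small RNA genes, 8.16% lay in the last 30 nt, with 3.22% in snoRNA genes and 20.9% in the shorter tRNA genes. Both lengths were chosen after the values were seen. Up to the midpoint of the RNAs there were 24 sites and past it 22, or 52.2% in the 5′ part (exact binomial 95% interval 36.9% to 67.1%, which treats sites as independent and covers counting error only). Single families differed, with 11 of 14 vault RNA sites and 0 of 6 SRP RNA sites in the 5′ part.

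The sites were confined closely to the genes. In the 200 nt on each side of the 10 genes there were 7 sites, all of them the end sites named above, and 0 others. Within 500 nt there were 9, the other 2 being minus-strand sites of the ribosomal protein gene RPS29, in whose span RN7SL1 lies. Apart from the 3 sites and the end site of RN7SL1, RPS29 had 11 sites, all on the minus strand, opposite to the sites of RN7SL1. The lncRNA gene LOC105378198 begins at the first base of VTRNA1-1 and spans all 3 vault RNA genes in its 46805 nt. It held 16 sites, of which 14 lay in the vault RNA genes and 2 were the end sites of VTRNA1-2 and VTRNA1-3. The lncRNA gene LOC105378179 around RN7SL2 held 4, of which 3 lay in RN7SL2 and 1 was its end site. Within the 10 RNAs neighbouring sites were close together, with a median distance of 14.5 nt and 23 of 36 distances at 20 nt or less.

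RN7SK, the 7SK RNA that holds the transcription factor P-TEFb in an inactive form, had 0 sites and no site within 272509 nt, and the brain cytoplasmic RNA gene BCYRN1 also had 0. Of 293 RN7SK pseudogenes, 3 had a site, with 4 sites in all. The treatment of reads that match both RN7SK and its pseudogenes is not stated either.

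The genes for the proteins of these particles were counted by list, in lists too short for fine differences in their shares to be read. Of 20052 protein-coding genes, 23.1% had a site in their span, with a median of 0 sites over all of them and of 3 over those with a site. All 8 genes of the SRP proteins and receptor had a site, with 33 sites in all, a median of 3, and the most in SRP9 (12 sites) and SRP14 (7 sites), the pair that binds the Alu domain. Of the 7 telomerase protein genes 6 had a site, with 23 in all and a median of 1. DKC1, which encodes dyskerin, had 12 sites and NHP2, an H/ACA protein, 6, while TERT, the reverse transcriptase, had 0. Of the 11 genes of RNase P and MRP proteins 3 had a site, a share near the 23.1% of all protein-coding genes. POP5 and RPP14 had 4 sites each and POP7 2, and the median was 0. POP1, POP4, RPP21, RPP25, RPP25L, RPP30, RPP38 and RPP40 had 0. None of the 3 vault protein genes had a site: MVP, the major vault protein, TEP1 and PARP4 were each at 0. With 3 genes, this cannot be told apart from the 23.1% of all protein-coding genes.

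Among the 6 genes listed for Y RNA and La proteins 5 had a site, with 92 in all and a median of 7.5. NCL, the nucleolar protein nucleolin, had 48 sites and YBX1, an RNA-binding cold shock protein, 24. SSB, which encodes La, had 9, PUF60 had 6 and RO60 had 5, and ZBP1 had 0. The ZBP1 gene counted here, on chromosome 20, encodes Z-DNA-binding protein 1, which is no Y RNA or La protein. Its 0 therefore says nothing about proteins of these particles. It remains in the share and median of this list and in the counts over all 35 partner genes. Some of this list, such as NCL and YBX1, bind many other RNAs too. For 29 of the partner genes the RefSeq promoter table gave a strand, and all 146 sites in them lay on it; for the other 6 genes, with 12 sites, no strand was used. The counts are of sites within gene spans, and 15 of them lay in snoRNA genes inside a partner gene: 6 of the 12 in DKC1 (in SNORA36A and SNORA56) and 9 of the 48 in NCL (in SNORA75, SNORD20 and SNORD82). Since spans include introns and expression was not measured, the counts do not compare binding between genes. With at least 3 sites required, 13 of the 35 partner genes passed in place of 22, against 12.9% of protein-coding genes.

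The short genes with the most sites outside the 10 RNAs were histone and small RNA genes, with counts in the range of TERC and RMRP and above those of the other 8 RNAs. Among genes of up to 600 nt outside the 10, H4C4 had 9 sites, H4C2 and H2AC20 8 each, and SNORD92 and SCARNA10 7 each, with ties broken by sites per kb. H4C4, H4C2 and H2AC20 encode replication-dependent histones, SNORD92 is a C/D box snoRNA, and SCARNA10 is a small Cajal body RNA. Closest to the median of 22.9 sites per kb, among genes with at least 3 sites, were SNORA3B at 22.9, SCARNA20, SCARNA23 and SNORA61 at 23.1 each, and SNORA36A at 22.7. All 5 are small nucleolar or small Cajal body RNA genes with 3 sites each. The likeness is in a count or a density of a single merged list.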

How the data were processed

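Per the submitters' processing notes, FastQC 0.11.9, STAR 2.7.3a, SAMtools 1.10, bedtools 2.29.2, UMI-tools 1.1.2 and the build GRCh38.p12 were used, with no role or order given. Which caller found the sites, with which filters and from which libraries, is not given in the sources used here. What the authors deposited is a BED list of positions with a score of 0 throughout. Positions were converted to count the first base as 1. Gene spans came from a RefSeq table of GRCh38.p14 with neither strand nor exons; strands of partner genes came from a RefSeq promoter table of that build. Each site's own strand set the 5′ end from which it was counted, so a site antisense to a gene would be counted for it. Mature sequences of the 10 RNAs were not used here.

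The 10 genes, the lists and the windows were chosen with earlier results of these data known. Named genes are the 10, their listed relatives, the partner genes with the most sites (2 per list) and those with none, and the 5 most alike by each of 2 measures; POP7, RO60, PUF60, SSB, RPS29, the snoRNA genes inside partner genes, the 2 LOC genes and RN7SL674P were chosen after their values were seen. Alternatives were the rule of overlap, joined sites, widened spans, strand, flank length, the midpoint and a minimum of 3 sites. Software was matplotlib 3.10.9, scipy 1.17.1, pandas 2.3.3 and numpy 2.4.6 under Python 3.11.15. Assignment was tested on simulated data: of 795 sites planted in 300 genes, 100% were recovered at their position.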

Additional observations from a re-analysis of the deposited data

How the results depend on the processing

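Joining sites whose starts lay within 50 nt on the same strand changed the counts most: 18 sites were then left in the 10 genes in place of 46, and the median density was 10.6 sites per kb in place of 22.9. TERC then had 5 sites, RMRP and RPPH1 3 each, and the other 7 genes 1 each. The vault RNAs were then no longer the densest, since RNY5 also had 1 site and is shorter, at 84 nt. Their rank thus depends on counting close sites separately. Under the other 4 planned counting rules, the count in the 10 genes lay between 43 (abutting sites joined) and 53 (spans widened by 10 nt). The density in the genes was 12.3 times that of flanks of 200 nt, 3.08 times with flanks of 50 nt and 23.98 times with flanks of 500 nt; since all 7 sites within 200 nt are end sites, the ratio mainly follows the length of the flank, and without them it has no value. With at least 3 sites required, 13 partner genes were left in place of 22. The share of sites in the 5′ part was 58.8% without the middle 20% of each RNA, 61.1% with sites joined and 58.5% with the end sites added, against 52.2% as reported; these reuse the same sites and are no independent check. The last of these, the count of end sites within 5 nt (8 genes, as before), the single count of shared SRP positions (43 sites) and the flanks without end sites were chosen after seeing the data. No paired analysis was possible because the list is merged and carries no replicate numbers, and no replicate could be left out for the same reason.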
